A study of Mus musculus with 6 samples.

Results

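The 8 genes described here are *Pde4a*, *Pde4b*, *Pde4c*, *Pde4d*, *Pde7a*, *Pde7b*, *Pde8a*, and *Pde8b*, the phosphodiesterases of families 4, 7, and 8, which are specific for cAMP. They were found by gene identifier among the 53715 genes of an RNA-Seq table of mouse cerebellum, and each had 1 entry. The cerebellums came from 3 control and 3 *Slc39a8*-NSKO male mice, of the strain C57BL/6 in the labels and C57BL/6J in the methods, and a legend gives their age as 4 weeks. In *Slc39a8*-NSKO mice (labelled slc39a8-KO), a Cre recombinase under the synapsin promoter was used to delete floxed *Slc39a8*, the gene of a metal ion transporter, in neurons, so cells in which this promoter is silent keep the gene, and Cre activity may vary between regions. The labels call the control mice WT, while the text on this cross also speaks of *Slc39a8* fl/fl controls, so which of these genotypes was sequenced is not settled. The values are estimated read counts per gene, and CPM are these counts scaled to a common library size after TMM normalization.

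Cyclic AMP is made by adenylyl cyclases, is sensed mainly by protein kinase A (PKA) and EPAC proteins, and is removed by phosphodiesterases, which hydrolyze it to AMP. Families 4, 7, and 8 cleave cAMP and leave cGMP nearly untouched, whereas other families accept both nucleotides or prefer cGMP. Their catalytic pocket holds a pair of metal ions, zinc and usually magnesium. The question for these genes was whether the machinery that ends a cAMP signal differed between the genotypes at the RNA level, since the study reports on transcripts of cAMP signaling in these cerebellums.

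None of the 8 genes passed a test for a difference between the genotypes. In edgeR's quasi-likelihood test 0 of 8 had an adjusted p below 0.05, against 16 of the 16330 genes tested (0.0980%, with 0.0245% higher and 0.0735% lower). DESeq2 and limma-voom also called 0 of the 8, against 37 of 27181 genes tested for DESeq2 and 12 of 16330 for limma-voom. At an unadjusted p below 0.05 the count was 0 of 8, against 5.39% of all genes tested. In 0 of the 8 were the mice of the genotypes apart without overlap, against 10.3% of all genes tested. The log2 fold changes (*Slc39a8*-NSKO minus control) lay between −0.16 for *Pde8a* and 0.17 for *Pde4d*, with 7 above 0 and 1 below, and their median was 0.040, compared with 0.0011 over all genes tested. All 8 passed the filter on low counts, so these counts cover every member.

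Control mouse 1 had the deepest library, with 20844267 counts on genes, and control mouse 2 the shallowest, with 14431260. The counts of *Slc39a8* itself were 99, 46, and 44 for the controls and 38, 40, and 41 for the *Slc39a8*-NSKO mice, without overlap in CPM, but the difference did not pass the threshold (log2 fold change −0.83, adjusted p = 0.534 from edgeR's test). In bulk tissue, fewer cells of a type and less RNA per cell cannot be told apart. The tissue label was checked on markers of cerebellar neurons, all of which were detected, and the sums lay between 5408 and 5873 CPM for granule cells and between 6923 and 8092 CPM for Purkinje cells over the 6 mice. Summed markers of Bergmann glia and astrocytes were at 2735 to 3064 CPM in control and at 3117 to 3167 CPM in *Slc39a8*-NSKO mice, and those of microglia at 119 to 133 and at 139 to 141 CPM, each with 7 of 8 genes higher in sign and 0 of 8 past the threshold. Of all genes tested, 50.5% were higher in sign. An unadjusted edgeR p below 0.05 was found for 4 of the 8 glia and astrocyte markers and 1 of the 8 microglia markers, against 5.39% of all genes tested. The genotypes did not overlap, in either direction, for 5 of 8 and 2 of 8, against 10.3% of all genes tested. The part of glia and microglia in the values below was not tested. Choroid plexus markers were higher in sign in 7 of 7 genes, with a median log2 fold change of 0.36, against 0.13 for the glia and 0.091 for microglia. Of these 7 genes 3 had an unadjusted edgeR p below 0.05 and 0 passed after adjustment, and the sums were 770 to 1112 CPM in control and 905 to 1556 CPM in *Slc39a8*-NSKO mice. The part of choroid plexus RNA was not tested either. For molecular layer interneurons, oligodendrocytes, endothelial cells, and striatum, the sums overlapped between the genotypes and 0 genes passed. In sign, 7 of 8 oligodendrocyte and 6 of 7 endothelial markers were lower, with median log2 fold changes of −0.071 and −0.072. Of the interneuron markers 5 of 6 were higher, and of the 6 striatal markers tested 4. The genotypes did not overlap for 1 oligodendrocyte and 2 striatal markers, and 1 marker of each list had an unadjusted edgeR p below 0.05. The part of these cells was not tested.

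*Pde4b* and *Pde4a* had the highest levels per length of the 8 genes and varied least between mice. Family 4 enzymes are the targets of rolipram and shape cAMP signals near receptors and the synapse. *Pde4b* (ENSMUSG00000028525.16, plus strand of chromosome 4, 102087543 to 102607259 in GRCm38) was at 73.1, 71.8, and 70.0 CPM in control mice 1 to 3 and at 77.0, 69.3, and 73.6 CPM in *Slc39a8*-NSKO mice 1 to 3. Both the highest and the lowest value were from *Slc39a8*-NSKO mice, and the control values lay between them. The means were 71.6 ± 1.57 and 73.3 ± 3.85 CPM (SD, n = 3 each), which is 0.033 ± 0.060 on the log2 scale (fold change ± SE, edgeR adjusted p = 0.994). The 95% interval of the fold, which is not adjusted for the number of genes, ran from 0.936 to 1.12.

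*Pde4a* (ENSMUSG00000032177.17, plus strand of chromosome 9, 21165714 to 21213248) was at 46.3, 45.6, and 43.6 CPM in control and at 46.2, 44.4, and 47.7 CPM in *Slc39a8*-NSKO mice. The genotypes overlapped, and the highest mouse exceeded the lowest of its own genotype by a factor of 1.06 (control) or 1.08 (*Slc39a8*-NSKO). The difference was 0.028 ± 0.063 on the log2 scale (SE, edgeR adjusted p = 0.994), with a 95% interval of the fold from 0.928 to 1.12. The within-genotype coefficient of variation was 3.40% for *Pde4a* and 4.06% for *Pde4b*, against a median of 8.25% over all genes tested.

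*Pde4d*, whose product binds beta-arrestin and several anchoring proteins, had the highest log2 fold change of the 8, with overlapping genotypes. The gene (ENSMUSG00000021699.17) spans 1504 kb of the plus strand of chromosome 13, from 108449948 to 109953461. Its values were 28.6, 21, and 24.7 CPM in control and 31.6, 25.3, and 27.0 CPM in *Slc39a8*-NSKO mice. *Slc39a8*-NSKO mouse 1 was highest and control mouse 2 lowest, while control mouse 1 lay above *Slc39a8*-NSKO mice 2 and 3. The means were 24.8 ± 3.78 and 28.0 ± 3.25 CPM (SD, n = 3 each), or 0.17 ± 0.111 as log2 fold change with its SE (edgeR adjusted p = 0.994) and a 95% interval of the fold from 0.951 to 1.32. It was 0.29 without control mouse 1 (edgeR adjusted p = 0.467, the lowest for any member under any alternative), 0.065 without control mouse 2, and 0.071 with *Slc39a8*-NSKO mouse 1 left out. Each *Slc39a8*-NSKO mouse lay above the control mouse of the same number. With a replicate block the log2 fold change was 0.18 ± 0.070 (SE, edgeR adjusted p = 0.624).

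*Pde4c*, the member of family 4 with little expression in most brain regions, had few counts in every mouse. The gene (ENSMUSG00000031842.14) lies on the plus strand of chromosome 8 from 70723720 to 70751186. The controls gave 24, 13, and 15 counts and the *Slc39a8*-NSKO mice 21, 24, and 17, or 1.01 ± 0.133 and 1.06 ± 0.165 CPM (SD, n = 3 each). The ranges nearly coincided. The 95% interval of the fold, from 0.650 to 1.68, was the widest of the 8. Its log2 fold change of 0.062 (SE 0.317, edgeR adjusted p = 0.997) became −0.0065 when control mouse 2 was left out and −0.056 when *Slc39a8*-NSKO mouse 2 was.

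**Figure D1:**
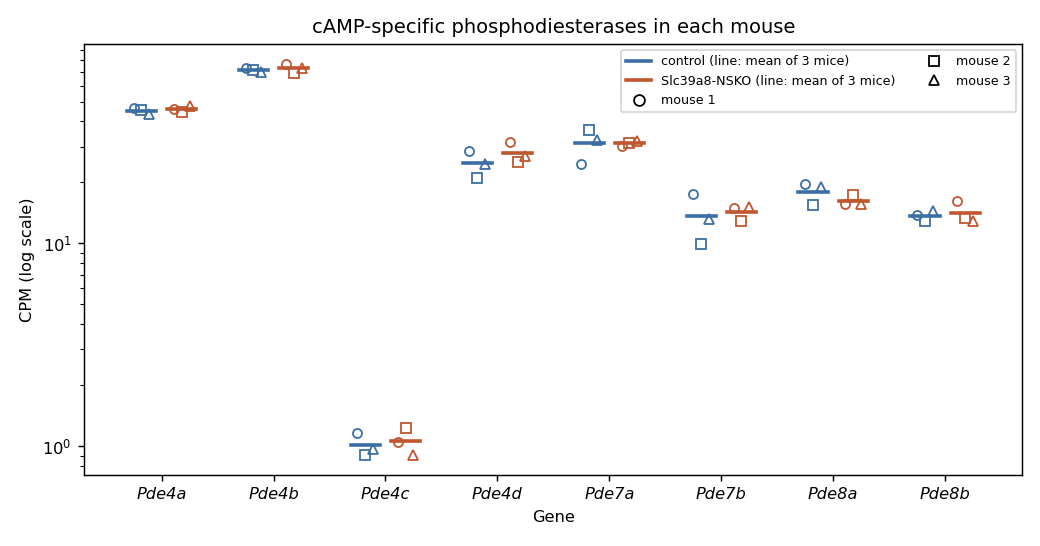
Level of each cAMP-specific phosphodiesterase gene in CPM (log axis) in each of 3 control and 3 *Slc39a8*-NSKO mice, with mouse numbers as symbols and a line at each mean. The genotypes overlap for all 8 genes, and the control mice are widest apart for *Pde7b*, from 9.94 to 17.6 CPM.

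The family 7 enzymes, which have high affinity for cAMP and are insensitive to rolipram, had nearly equal means but widely spread control mice. *Pde7a* (ENSMUSG00000069094.12, minus strand of chromosome 3, 19223108 to 19311322) was at 24.7, 36.2, and 32.4 CPM in control mice 1 to 3 and at 30.2, 31.4, and 32.0 CPM in *Slc39a8*-NSKO mice 1 to 3. All *Slc39a8*-NSKO values fell inside the control range. The means were 31.1 ± 5.87 and 31.2 ± 0.911 CPM (SD, n = 3 each), and the 95% interval of the fold was 0.856 to 1.19. On the log2 scale the difference was 0.014 ± 0.111 (SE, edgeR adjusted p = 0.998), and it was −0.14 without control mouse 1, 0.14 without control mouse 2, and −0.0043 with *Slc39a8*-NSKO mouse 3 left out. An antisense gene, *Gm16093*, shares exon bases with *Pde7a*, and whether the counting used strand is not given in the sources used here.

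*Pde7b* (ENSMUSG00000019990.15, minus strand of chromosome 10, 20398004 to 20725078), which is best known from the striatum, had the mirror image in the control mice. Its values were 17.6, 9.94, and 13.2 CPM in control mice 1 to 3 and 15.0, 12.9, and 15.2 CPM in *Slc39a8*-NSKO mice 1 to 3. Control mouse 1, the lowest of all for *Pde7a*, was the highest for *Pde7b*, and control mouse 2, the highest for *Pde7a*, was the lowest for *Pde7b*. Control mouse 1 exceeded control mouse 2 by 0.82 on the log2 scale, whereas the fitted difference between the genotypes was 0.062 ± 0.161 (SE, edgeR adjusted p = 0.994, 95% interval of the fold 0.821 to 1.33). Without control mouse 1 it was 0.31, and without control mouse 2 it was −0.11. Summed striatal markers, at 331 CPM in control mouse 1 and 354 CPM in control mouse 2, had the opposite order.

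Family 8 enzymes have the highest affinity for cAMP and carry a PAS domain. *Pde8a* (ENSMUSG00000025584.17, plus strand of chromosome 7, 81213596 to 81334533) was the only member with a log2 fold change below 0. It was at 19.6, 15.5, and 19.0 CPM in control and at 15.6, 17.4, and 15.7 CPM in *Slc39a8*-NSKO mice. Control mouse 2 was the lowest of all, and control mice 1 and 3 lay above every *Slc39a8*-NSKO mouse. The means were 18.0 ± 2.20 and 16.2 ± 0.972 CPM (SD, n = 3 each), or −0.16 ± 0.104 as log2 fold change with its SE (edgeR adjusted p = 0.994) and a 95% interval of the fold from 0.769 to 1.05. It was −0.25 without control mouse 2 and −0.087 without control mouse 1.

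*Pde8b*, known for its role in the adrenal and thyroid glands, lies on the minus strand of chromosome 13 from 95024454 to 95250336 (ENSMUSG00000021684.17). It was at 13.8, 12.9, and 14.4 CPM in control and at 16.1, 13.4, and 12.9 CPM in *Slc39a8*-NSKO mice. *Slc39a8*-NSKO mouse 1 was the highest and *Slc39a8*-NSKO mouse 3 the lowest. The difference was 0.047 ± 0.110 on the log2 scale (SE, edgeR adjusted p = 0.994), with a 95% interval of the fold from 0.876 to 1.22, and −0.057 without *Slc39a8*-NSKO mouse 1. *Pde8b* was the only member whose deposited counts were not whole numbers, in all 6 mice, and an antisense gene, *Gm48420*, shares exon bases with it, so its value is less certain.

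**Figure D2:**
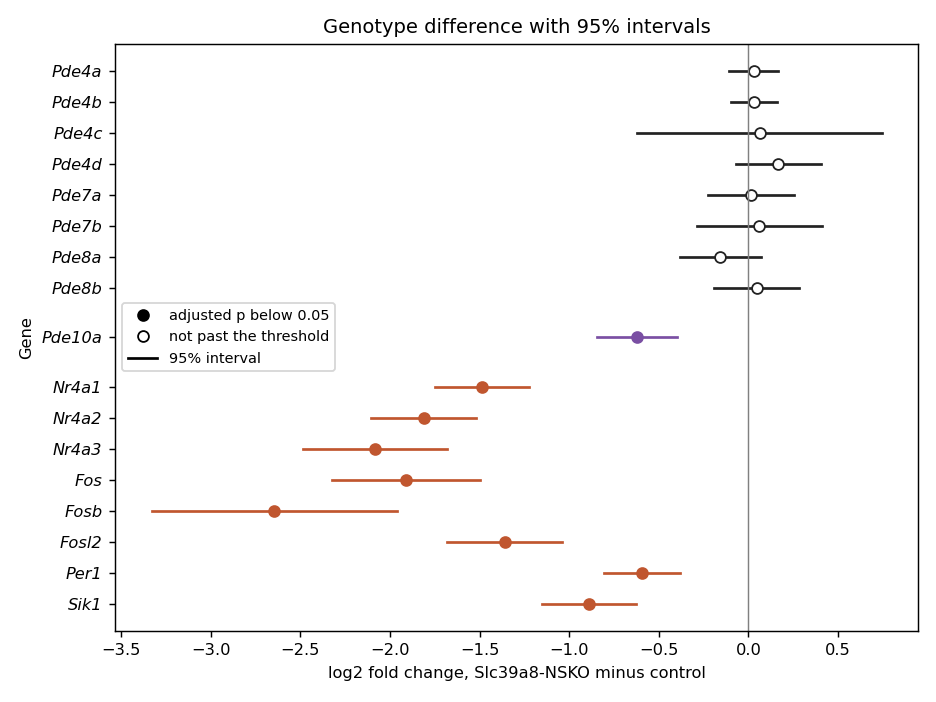
Log2 fold change of *Slc39a8*-NSKO minus control with its 95% interval for the 8 cAMP-specific phosphodiesterases, *Pde10a*, and 8 CREB-responsive genes; filled points have an adjusted p below 0.05. The intervals of the 8 members include 0, and the widest is that of *Pde4c*, from −0.62 to 0.74.

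Across the 8 genes, exact two-sided permutation tests of log2 CPM gave p values between 0.4 and 1, where 0.1 is the smallest that 3 mice against 3 can give. The 95% intervals lay between folds of 0.650 and 1.68 for all 8 and between 0.769 and 1.33 for the 7 genes other than *Pde4c*. The sum of the 8 genes was 225, 214, and 218 CPM in control and 233, 215, and 225 CPM in *Slc39a8*-NSKO mice. These sums overlapped between the genotypes. A count per gene adds up the long and short isoforms of a phosphodiesterase, for which the annotation lists between 3 transcripts (*Pde8a*) and 20 transcripts (*Pde4d*), and a shift among them was not analysed here.

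**Figure D3:**
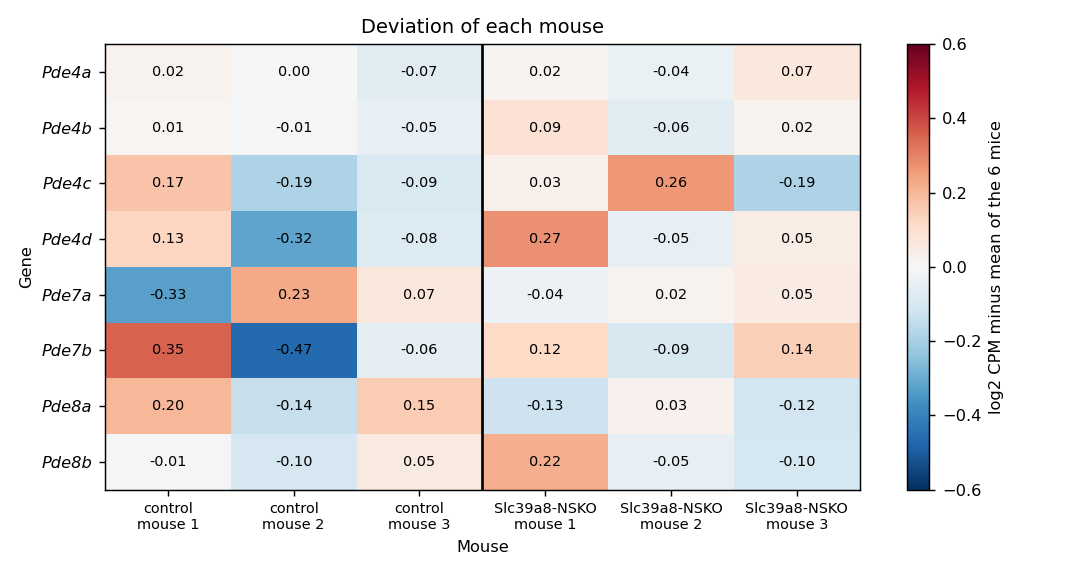
Log2 CPM of each gene in each mouse, minus the mean of the 6 mice (color and printed value), with a line between the genotypes. Control mice 1 and 2 lie on opposite sides of the mean for *Pde7b* (0.35 and −0.47) and, with the signs exchanged, for *Pde7a* (−0.33 and 0.23).

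The mice did not rank alike for all members. Of the 28 pairs among the 8 genes, 16 had a positive and 12 a negative Pearson's r of log2 CPM over the 6 mice. The most negative was *Pde7a* with *Pde7b* (Pearson's r = −0.878, exact permutation p = 0.0389, adjusted p = 0.544 over the 28 pairs, Spearman's rho = −0.714, exact permutation p = 0.136, adjusted p = 0.635). When control mice 1 and 2, the mice farthest from the median of *Pde7a*, were left out, r was −0.372. Leaving out extreme mice narrows the range, so the weaker r cannot tell whether the relation rests on them. Control mice 1 and 2 also had the largest and the smallest library, and the part of library size was not tested. *Pde4d* and *Pde7b* had the most positive r (Pearson's r = 0.861, exact permutation p = 0.0389, adjusted p = 0.544, Spearman's rho = 0.771, exact permutation p = 0.103, adjusted p = 0.635), and r was 0.974 without control mouse 2 and *Slc39a8*-NSKO mouse 1. No pair passed after adjustment.

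The genes whose pattern over the 6 mice was most like that of a member, by Pearson's r of log2 CPM among all genes tested, were *Selplg* for *Pde4a* (r = 0.984), *Tro* for *Pde4b* (0.979), *8030453O22Rik* for *Pde4c* (0.999), and *Map6d1* for *Pde4d* (0.998). For the other families they were *Gm44684* for *Pde7a* (0.996), *C530025M09Rik* for *Pde7b* (0.996), *Plek* for *Pde8a* (0.980), and *Vps36* for *Pde8b* (0.993). With 6 mice and this many genes such values are common, and between 49 genes (*Pde8a*) and 489 genes (*Pde4d*) had an r above 0.9 with a member.

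Levels of different genes were compared as CPM per kilobase of merged exons, over all 6 mice. *Pde4b* was highest at 6.86 ± 0.264 and *Pde4a* next at 5.96 ± 0.193 CPM per kilobase (SD, n = 6 each). *Pde8a* (4.23 ± 0.447) and *Pde7a* (4.02 ± 0.485) followed with overlapping ranges, and so did *Pde8b* (2.37 ± 0.206) and *Pde4d* (2.20 ± 0.300). *Pde7b* was at 1.12 ± 0.208 and *Pde4c* at 0.185 ± 0.0245 CPM per kilobase. Other neighbors in this order had ranges that did not overlap. On this scale family 4 made up 56.4%, family 8 24.5%, and family 7 19.1% of the summed level. These shares and the place of *Pde4d* depend on the length used, and the shares are given for merged exons only. With the longest annotated transcript in place of merged exons, *Pde4d* took place 3, at 6.27 CPM per kilobase, *Pde8a* place 5, and *Pde8b* place 6. *Pde4b*, *Pde4a*, *Pde7a*, *Pde7b*, and *Pde4c* kept their places.

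**Figure D4:**
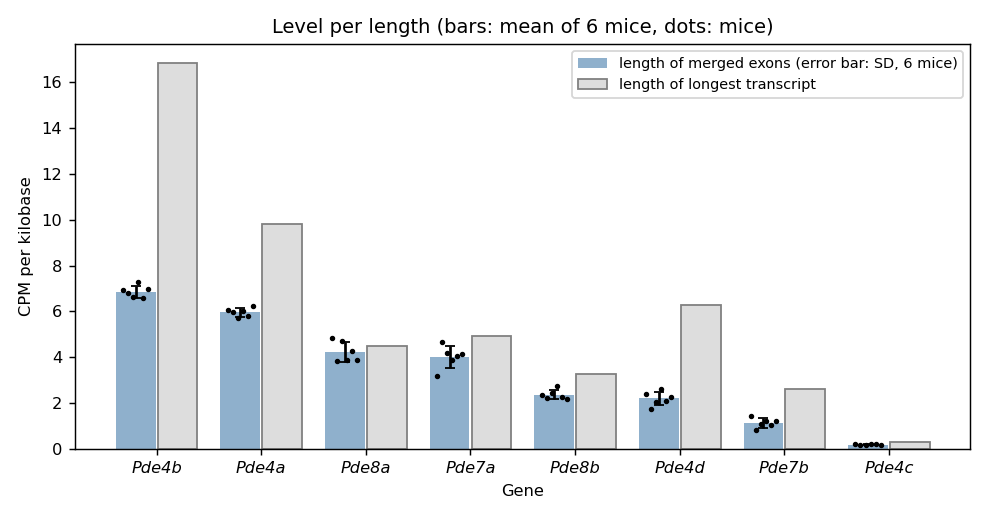
Level in CPM per kilobase for each gene, as the mean of 6 mice with the SD and each mouse as a dot for the length of merged exons, and as the mean for the length of the longest transcript. *Pde4b* and *Pde4a* are highest by either length, and *Pde4d* moves from 2.20 to 6.27.

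Because the study examined CREB target genes, the promoters of the members were searched for the cAMP response element (CRE), TGACGTCA, and for its short form, TGACG or CGTCA on the other strand, which the full element contains. RefSeq promoter windows of GRCm38.p6, from 250 bases before to 50 bases after an annotated start, were at hand for 16 starts of 7 members, *Pde7a* being without one. A short CRE was found in 4 of these 16 windows (25%), against 20.8% of all 32851 windows, and the full CRE in 0 of 16, against 1.79% of all windows. The 4 windows belong to *Pde4a*, *Pde4b*, *Pde8a*, and *Pde8b*. The 3 with a short CRE upstream of the start are shown over the 100 bases before it, 5′ to 3′ on the plus strand, with the short CRE in capitals.
*Pde4b*, chr4:102421455-102421554: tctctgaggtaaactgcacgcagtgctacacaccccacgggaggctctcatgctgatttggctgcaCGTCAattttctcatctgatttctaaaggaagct
*Pde4a*, chr9:21184001-21184100: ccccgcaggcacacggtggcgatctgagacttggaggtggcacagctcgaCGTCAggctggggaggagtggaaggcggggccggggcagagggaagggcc
*Pde8a*, chr7:81213165-81213264: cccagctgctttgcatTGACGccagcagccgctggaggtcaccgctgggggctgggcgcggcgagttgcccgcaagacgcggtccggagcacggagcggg

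The short CRE begins 34 bases before the RefSeq start in *Pde4b*, 50 bases in *Pde4a*, and 84 bases in *Pde8a*. For *Pde8a* the whole window, 81213015 to 81213314, lies before the gene start of 81213596 given above, which is from GENCODE, so the annotations differ there. In *Pde4b* and *Pde4a* it lies at 1 of several annotated starts, and the gene counts do not tell the starts apart. Windows were at hand for 7 of the 8 CREB-responsive genes described below, 8 windows in all. Of these, 7 held a short CRE (87.5%, against 20.8% of all windows) and 0 the full CRE (against 1.79%). These genes were listed as CREB-responsive, so this share is not independent evidence. Its bearing on the difference from the members was not tested. A match is a run of letters and not a binding site, and binding was not measured here.

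The wider pathway was described with lists of genes. Of the 13 other phosphodiesterases, 9 were tested and 1 passed the threshold. This was *Pde10a*, which hydrolyzes both cAMP and cGMP, at 99.5, 108, and 92.4 CPM in control and at 78.6, 55.7, and 60.6 CPM in *Slc39a8*-NSKO mice. The genotypes were fully apart, with the *Slc39a8*-NSKO mice lower (log2 fold change −0.62, SE 0.104, edgeR adjusted p = 0.0442). The other 8 of these genes had log2 fold changes between −0.16 (*Pde1a*) and 0.14 (*Pde3a*). Whether *Pde10a* differed from the members in its response was not tested.

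Of the 10 adenylyl cyclases, which make cAMP, 9 were tested and 0 passed in either direction, with a median log2 fold change of 0.087. The lowest unadjusted edgeR p values were those of *Adcy5* (log2 fold change 0.13, edgeR adjusted p = 0.968) and *Adcy1* (0.10, edgeR adjusted p = 0.994). Of the 11 cAMP effectors and PKA inhibitors, 0 passed and the median was 0.039. Among them *Pkia*, an inhibitor of PKA, had a log2 fold change of 0.098 and *Prkar1b*, a regulatory subunit, 0.070, each with an edgeR adjusted p of 0.994. Of the 10 genes of proteins that bind phosphodiesterases, 0 passed and the median was 0.031, with *Arrb2*, a beta-arrestin, at 0.093 (edgeR adjusted p = 0.994). In these 3 lists 0 genes had an unadjusted p below 0.05. The genotypes did not overlap for 1 of the 11 effectors and inhibitors, *Prkar1b*, which was higher in *Slc39a8*-NSKO mice. The count was 0 of 9 for the cyclases tested and 0 of 10 for the binding partners, against 10.3% of all genes tested.

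**Figure D5:**
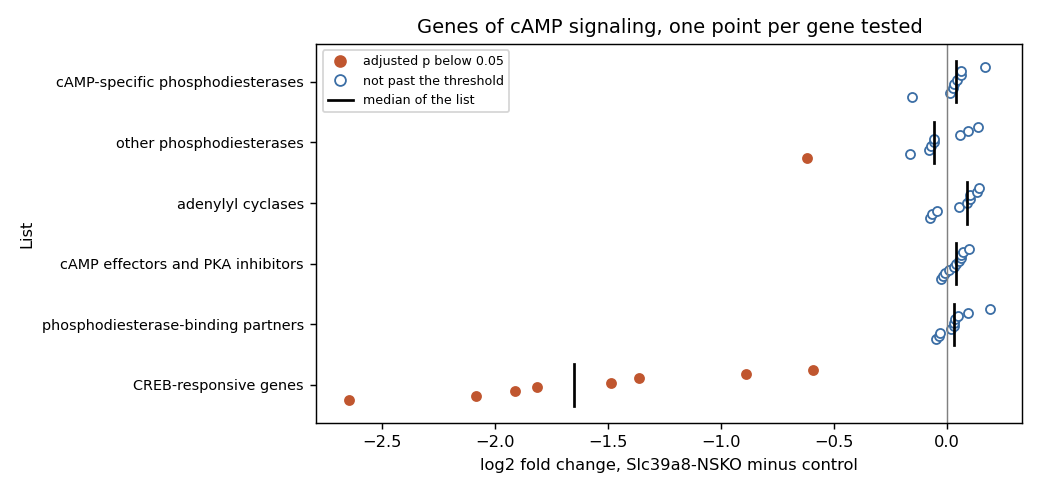
Log2 fold change of *Slc39a8*-NSKO minus control, with a point for each gene tested and a line at the median of each list of cAMP signaling genes. The 8 cAMP-specific phosphodiesterases lie between −0.16 and 0.17, and the filled points, past the threshold, are *Pde10a* and the CREB-responsive genes.

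The list of CREB-responsive genes held *Nr4a1*, *Nr4a2*, *Nr4a3*, *Fos*, *Fosb*, *Fosl2*, and *Per1*, which the study names from these same samples, and *Sik1*, which was added here with its fall in these samples known. All 8 were lower and past the threshold, with a median log2 fold change of −1.65. Since they were chosen on these mice, neither their count nor the gap between the genotypes in their summed level is independent evidence. Their summed level was 437 to 505 CPM in control and 181 to 238 CPM in *Slc39a8*-NSKO mice, while that of the 8 cAMP-specific phosphodiesterases was 214 to 225 CPM and 215 to 233 CPM. The first pair of ranges was far apart and the second overlapped.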

How the data were processed

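Cerebellar RNA of 6 mice, 3 per genotype, was sequenced as paired-end reads. The labels name a directional library kit and the methods one of the same series without that word. The submitters' processing notes name FastQC, STAR, RSEM, and DESeq2, without versions, and mm10. The authors deposited expected counts per gene and mouse, not normalized for library size or length. Here 92 spike-in rows were left out, counts were rounded, and genes kept by filterByExpr were tested with edgeR 4.0.16 (glmQLFit, TMM, Benjamini-Hochberg adjustment over 16330 genes, threshold 0.05) in R 4.3.3. Counts on genes were 14431260 to 20844267 per mouse, and their number and the spread among 3 mice both limit the precision. Any pair of mice differed by more than sampling noise (chi-square per degree of freedom 3.79 to 8.89). Log2 CPM used a prior count of 2. Positions and lengths are from a GENCODE annotation of GRCm38, which has all 8 genes in the deposited version. Tests were tried on simulated counts. Alternatives were DESeq2 1.42.0, limma-voom (limma 3.58.1), RLE or no scaling factors, no filter, a minimum of 10 counts in each mouse, a replicate block, and each mouse left out. The members and lists were chosen with earlier results of these data known. Named are all members, list genes past the threshold (else the 2 with the lowest p), and the gene most like each member. The value of 1 gene that this rule selects is not reported here. The methods state separate mice. A figure legend of the study speaks of technical triplicates, and p-values would then measure technical spread.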

Additional observations from a re-analysis of the deposited data

How the results depend on the processing

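No member passed the threshold under any of the 13 alternatives. The lowest adjusted p over the 104 comparisons of a member under an alternative was 0.467, and 97 kept their direction. The 7 that turned all came from leaving out a mouse. With each mouse left out, the log2 fold change ranged from −0.0024 to 0.072 for *Pde4b*, −0.056 to 0.19 for *Pde4c*, −0.14 to 0.14 for *Pde7a*, −0.11 to 0.31 for *Pde7b*, and −0.057 to 0.11 for *Pde8b*. *Pde4a* (0.0034 to 0.055), *Pde4d* (0.065 to 0.29), and *Pde8a* (−0.25 to −0.087) kept theirs. The number of all genes past the threshold moved from 16 to 37 with DESeq2, 178 with no filter, and 41 with the replicate block, and from 9 (without *Slc39a8*-NSKO mouse 2) to 38 (without control mouse 1) with a mouse left out. The causes were not tested. Same-numbered mice deviated together with r of 0.142, 0.116, and 0.0104, against −0.177 to 0.0665 for mice of different number. Control mice 1 and 2 correlated best with their own number, and control mouse 3 did not. The replicate number was not taken as a pairing in the main fit, and whether the mice were paired is not settled. A replicate block changed no member's call. *Pde4c* had the fewest counts of the members, 13 to 24 per mouse, and the widest interval.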
